A study of Rattus norvegicus with 12 samples.

Results

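Translation initiation and elongation factors are the proteins that load messenger RNA onto the ribosome, find the start codon and carry the ribosome along the coding sequence. The genes described here were chosen by symbol, as names that begin with EIF1 to EIF6, EEF1 or EEF2, together with PABPC1, ETF1 and GSPT1, and by a mean level over all libraries of at least 30 TPM, the share of a transcript among all transcripts after correction for length. The files hold identifiers only, and symbols came from the study's gene lists, of which the one ordered by light-phase level was held in shortened form. Of 32883 genes in the files, 29 could be paired with such a symbol and 26 of these reached 30 TPM. Other factors of these families were not paired and were not analysed here, so the 26 are not the full set. ETF1 and GSPT1, the release factors, were not paired with an identifier and were not analysed here. The mean level that chose the genes pools both phases and is given only as a description.

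RNA-seq was performed on choroid plexus, the secretory tissue in the brain ventricles, of 12 male Sprague-Dawley rats aged 9 weeks, housed with light and dark periods of equal length. The light-phase group held 6 rats sampled at zeitgeber time 8 h, that is 8 h after lights on, and the dark-phase group held 6 rats sampled at zeitgeber time 20 h, 8 h after lights off. Rats of both groups were anaesthetized with xylazine and ketamine, plexus of the lateral ventricles and the fourth ventricle was excised, and the dark-phase rats were handled in darkness with occasional red light. Each library came from whole tissue of 1 rat, so a lower level of a transcript in fewer cells and less of it per cell cannot be told apart. With only 2 time points the groups show a difference between those times and not a rhythm.

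Initiation begins when eIF4E binds the cap of a messenger RNA, the eIF4G scaffold joins it to the helicase eIF4A, and eIF3 brings in the small ribosomal subunit with eIF2 and the initiator tRNA. eIF1 and eIF5 act at start codon recognition, after which the eEF1 complex delivers aminoacyl-tRNA and eEF2 moves the ribosome along. Many of these factors are encoded by messenger RNAs with a 5′ terminal oligopyrimidine tract, a run of C and T that begins at the first base, through which mTORC1 signalling controls their own translation. The choroid plexus epithelium makes and secretes protein in large amounts, transthyretin above all.

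The phase labels were checked on the clock genes DBP and BMAL1, and both differed in the same 12 libraries without overlap. DBP averaged 196 ± 23.2 scaled TPM in light-phase rats and 16.5 ± 1.45 in dark-phase rats (SD, n = 6 each). BMAL1 averaged 1.53 ± 0.48 and 20.6 ± 1.64 scaled TPM. Scaled TPM here is the deposited TPM divided by a factor for each library, which ranged from 0.939 to 1.05. Transthyretin took 25.4% to 31.0% of all TPM in a library, and the 26 factors together took 0.523% to 0.617%. The total read count of each library is unknown from the files. Relative depth, estimated from 195 genes, ranged from 0.877 to 1.35 in light-phase rats and from 0.9 to 1.09 in dark-phase rats.

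To show the letters at the start of the genes that the comparison turns on, 30 bases around the RefSeq transcription start were read, 10 before it and 20 from it, on the gene's own strand in build GRCr8. Capitals mark a run of at least 7 C or T that begins with a C no further than 5 bases from the start.

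EEF1B2, chr9:72074081-72074110, plus strand: ggccggtcccggCCCTTTTTCTCCCTCagc
EIF2S2, chr3:163855551-163855580, minus strand: tgagaggtatcggtaggagctacgctgact
EIF4A1, chr10:54888583-54888612, minus strand: gcactccgccctagattctaaggatcatgt
EIF5, chr6:136410323-136410352, plus strand: ggccgagggtagcttgagcgcggcggcggc
EIF4G3, first start, chr5:155481368-155481397, plus strand: cggccgtcctgccggactgctggaggcggc
EIF4G3, second start, chr5:155534482-155534511, plus strand: taactcgccttccagaattcctcgaggacc

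These 5 genes passed the test between the phases, and EEF1B2 alone among them had a run, of 15 bases. For comparison, 3 factors that had such a run and did not pass the test are printed next.

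EEF1A1, chr8:88225050-88225079, minus strand: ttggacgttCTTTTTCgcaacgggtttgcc
EIF3F, chr1:172369052-172369081, plus strand: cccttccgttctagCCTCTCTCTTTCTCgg
EIF3M, chr3:111897174-111897203, minus strand: caccgtgtggtaccgCTCCTTTTCCggtcg

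The runs measured 7 bases in EEF1A1, 14 in EIF3F and 10 in EIF3M. Promoters of 300 bases, 250 before the start and 50 from it, were matched by symbol for 23 of the 26 factors, and EIF3EL1, EIF4B and PABPC1 were not matched. A run was present in 5 of the 23 factors, the 4 already shown and EIF1, and in 6.21% of all 33469 promoters. The E-box CACGTG, the letters bound by clock factors such as BMAL1, was present in the promoters of 7 factors and in 6.42% of all promoters. Those 7 were EEF2, EIF1B, EIF3F, EIF4E, EIF4G1, EIF4H and EIF5A, and none of them passed the test between the phases. Over all genes 17.6% passed in either direction, so 7 factors are too few to relate the E-box to the phase. The D-box TTATGTAA, searched like the E-box on both strands, was present in 0.893% of all promoters and in no factor. In EIF3F, the one factor with both a run and an E-box, they shared no letters. A match here is a description of letters and not of a bound site. The run was sought only near the annotated start, which may differ from the start used in this tissue. A factor without a run here may therefore still carry the tract.

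To determine whether the transcripts of the translation factors differed between the phases, log2 levels of the 2 groups of rats were compared with limma across 12513 genes that averaged 1 TPM or more. A gene was called at a Benjamini-Hochberg adjusted p (FDR) below 0.05. Of 25 factors tested, 1 was higher in the dark phase, EIF4G3, and 5 were lower, EIF2S2, EIF3EL1, EIF4A1, EIF5 and EEF1B2, while 19 were not called. That is 4% of the factors called higher, beside a background of 9.52% of all genes, and 20% called lower, beside a background of 8.1%. Among the 3250 genes that averaged 30 TPM or more, the background was 11.6% higher and 12.2% lower, and over all genes 17.6% were called in either direction. The 25 factors entered through a list ordered by light-phase level, and the background genes did not. The part of this in the shares called was not tested. The study's own list of genes differing between the phases came from read counts, which the files do not hold. EIF3M, EIF5A and PABPC1, not called here, were in that list. EEF1B2, called here, was not found in it, and the other called factors were. The changes were small. The median absolute log2 difference of the 25 factors tested was 0.08 and the largest was 0.25, reached by EIF4G3. EIF2S3Y, the factor left without a test as explained below, had a log2 difference of -0.26, given as a description.

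**Figure D1:**
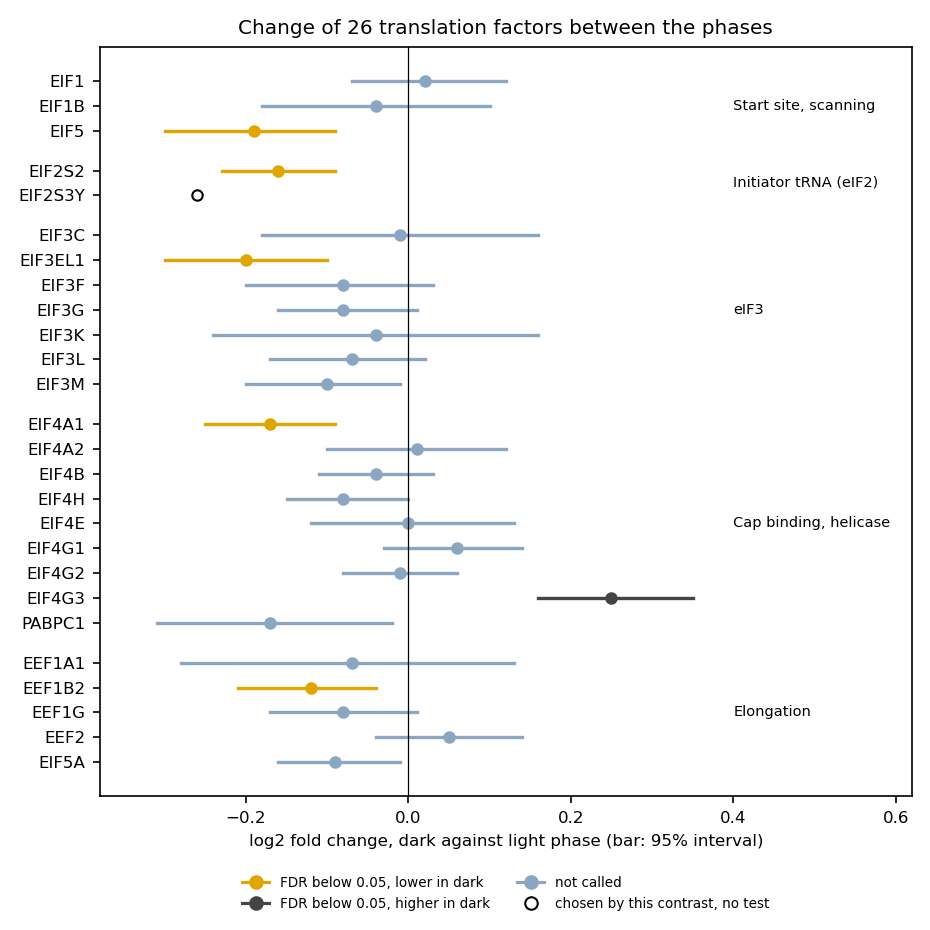
The log2 difference, dark against light phase, is plotted for 26 translation factors grouped by role, with bars for the 95% interval of the limma fit and colour for the call. EIF4G3 stands alone on the right at 0.25, the 5 factors called lower lie between -0.2 and -0.12, and EIF2S3Y is an open circle with no test.

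Without adjustment, p was below 0.05 for 1 factor in the higher direction and 9 in the lower, beside a background of 15.9% higher and 14.7% lower over all genes. The estimate was below 0 for 19 of the 25 factors (76%), beside a background of 51.8% of all genes and 56.7% of genes with at least 30 TPM. Since 25 factors entered through the upper part of a list ordered by light-phase level, their entry depended on the light-phase level, and the part of this in the share of lower estimates was not tested. The median log2 difference of the 25 factors tested was -0.07, that of all genes was -0.00694 and that of genes with at least 30 TPM was -0.022. The levels of the 2 groups of rats did not overlap for EIF4G3, with dark above light (background 5.03% of all genes), and for EIF2S2, with light above dark (background 3.7%). The other 23 tested factors overlapped between the phases.

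FPKM is the number of fragments per length of transcript, corrected for the depth of the library. All 6 calls were lost when the ratio of summed FPKM to summed TPM entered the fit as a covariate. That ratio is lower where a library's reads come from longer transcripts, and it ranged from 0.953 to 0.987 in light-phase rats and from 0.934 to 0.96 in dark-phase rats (exact permutation test, two-sided, p = 0.00433). The log2 difference was then 0.27 for EIF4G3 (limma FDR 0.0644), -0.16 for EIF4A1, -0.14 for EIF3EL1 and -0.12 for EIF2S2, while that of EIF5 was -0.06 and that of EEF1B2 -0.02. With the covariate 224 genes in all were called higher and 121 lower. Since the ratio itself moved with the phase, how much of each difference belongs to either cannot be told apart in these 12 libraries.

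Levels across the factors spanned from 37.5 TPM for EIF2S3Y to 2374 TPM for EEF1A1, averaged over both phases. After EEF1A1 the order was EIF4A2 at 425, EEF2 at 374, EIF4G2 at 318, EIF1 at 306, EIF5A at 282 and EEF1G at 261 TPM. EIF1 and EIF4G2, neighbours in that order, overlapped in range, at 284 to 324 and 307 to 333 scaled TPM in light-phase rats. EIF4A1 at 151, EEF1B2 at 130, EIF4H at 110 and EIF3F at 101 TPM followed, and the remaining factors lay below 100 TPM, from 37.5 to 92. The eIF4 group therefore held both very abundant and modest members, while the eIF3 subunits measured here were all between 65.8 and 101 TPM. Within a phase the rats varied least in EIF4G2, with a pooled SD of 0.039 on the log2 scale, and in EIF4B, at 0.0451. They varied most in EEF1A1 (0.179), EIF3K (0.175) and EIF3C (0.15).

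**Figure D2:**
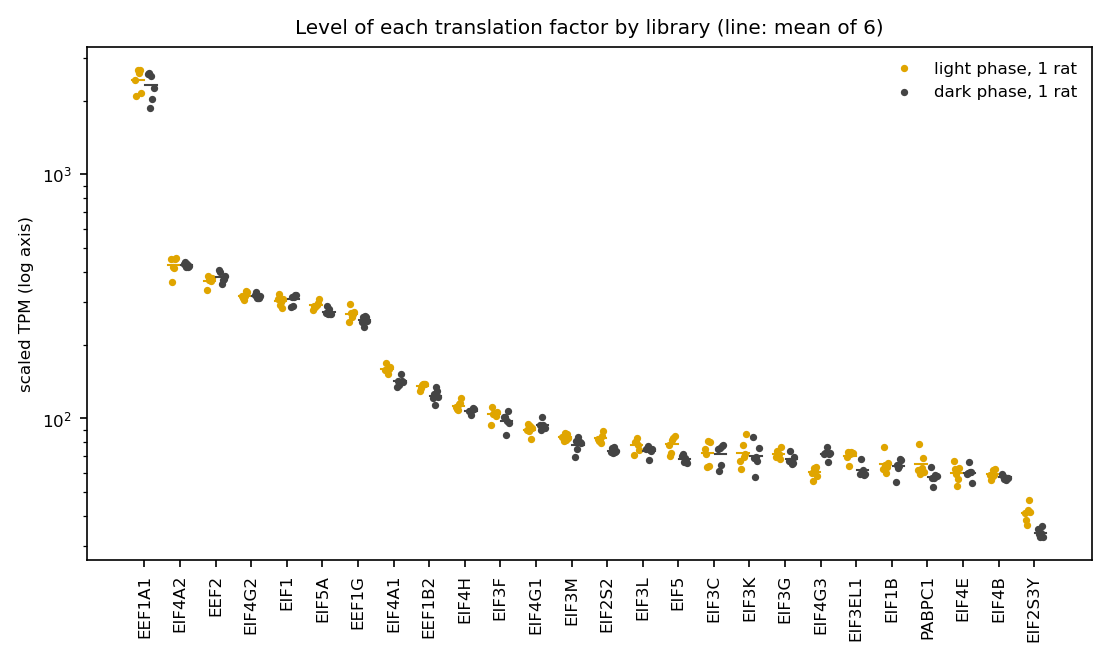
Scaled TPM on a log axis is plotted for each of 26 translation factors in order of level, with a point for each rat by phase and a line for the mean of 6 rats. EEF1A1 lies far above the rest, at means of 2433 and 2318, and the points of the phases lie close together for most factors.

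The cap-binding and scaffold genes showed the single call in the dark direction. EIF4G3, one of the large eIF4G scaffolds, lay between 55.2 and 63.3 scaled TPM in light-phase rats, with a median of 60.8, and between 66.1 and 76.5 in dark-phase rats, with a median of 72.1. Every dark-phase rat was above every light-phase rat. The mean rose from 60.2 ± 3.05 to 71.8 ± 3.34 (SD, n = 6 each), a log2 difference of 0.25 (SE 0.04, limma FDR 0.00162), or 19.3%.

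Its relatives were not called. EIF4G1, the major scaffold, measured 90.1 ± 4.55 scaled TPM in light-phase rats and 93.7 ± 3.83 in dark-phase rats, a log2 difference of 0.06 with a 95% interval from -0.03 to 0.14 (limma FDR 0.382). EIF4G2, a scaffold that lacks the eIF4E-binding region and serves cap-independent initiation, measured 319 ± 9.94 and 317 ± 7.17, a log2 difference of -0.01 with an interval from -0.08 to 0.06 (limma FDR 0.874). EIF4E, which binds the cap, measured 59.9 ± 5.01 and 60 ± 3.72 scaled TPM, with an interval of the log2 difference from -0.12 to 0.13. The direction of the EIF4G2 estimate turned to 0.01 with TPM taken as deposited.

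To compare the relatives directly, the ratio of 1 factor to another within each library was tested between the phases by an exact permutation test over 924 assignments, for 5 pairs. The ratio of EIF4G2 to EIF4G3 lay between 4.91 and 5.65 in light-phase rats, with a median of 5.29, and between 4.08 and 4.72 in dark-phase rats, with a median of 4.42. These ranges did not overlap, and the log2 ratio was lower in the dark phase by a difference of -0.26 (two-sided exact p = 0.00216, the smallest this design can give, adjusted over 5 pairs 0.0108). The ratio of EIF4G1 to EIF4G3 had medians of 1.5 and 1.3, with ranges of 1.3 to 1.72 and 1.24 to 1.42 that overlapped, and a log2 difference of -0.2 (exact p = 0.013, adjusted 0.0216). EIF4G1 to EIF4G2 had medians of 0.285 and 0.295 and a log2 difference of 0.07 (exact p = 0.275, adjusted 0.275). The ratios of both relatives to EIF4G3 were thus lower in the dark phase, while no difference between EIF4G1 and EIF4G2 was detected. None of the 5 ratios was tested with the FPKM to TPM ratio as covariate, the setting in which every call of a factor was lost.

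The helicase eIF4A, which unwinds the leader of the messenger RNA, is encoded by EIF4A1 and EIF4A2. EIF4A1 lay between 152 and 168 scaled TPM in light-phase rats, with a median of 159, and between 134 and 152 in dark-phase rats, with a median of 142. The highest dark-phase rat just reached the lowest light-phase rat. The mean fell from 160 ± 5.42 to 142 ± 6.39, a log2 difference of -0.17 (SE 0.04, limma FDR 0.00649).

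EIF4A2, the more abundant helicase gene here, lay between 362 and 453 scaled TPM in light-phase rats and between 416 and 439 in dark-phase rats, and the light-phase rats enclosed all the dark-phase rats. Its log2 difference was 0.01 with a 95% interval from -0.1 to 0.12 (limma FDR 0.929). The ratio of EIF4A1 to EIF4A2 ran from 0.35 to 0.464 in light-phase rats and from 0.311 to 0.356 in dark-phase rats, with medians of 0.364 and 0.331. The log2 ratio was lower in the dark phase by a difference of -0.18 (exact p = 0.00433, adjusted over 5 pairs 0.0108). Light-phase replicate 2 gave the ratio of 0.464, and without it the difference was -0.12 with an adjusted p of 0.0216 by the exact test.

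**Figure D3:**
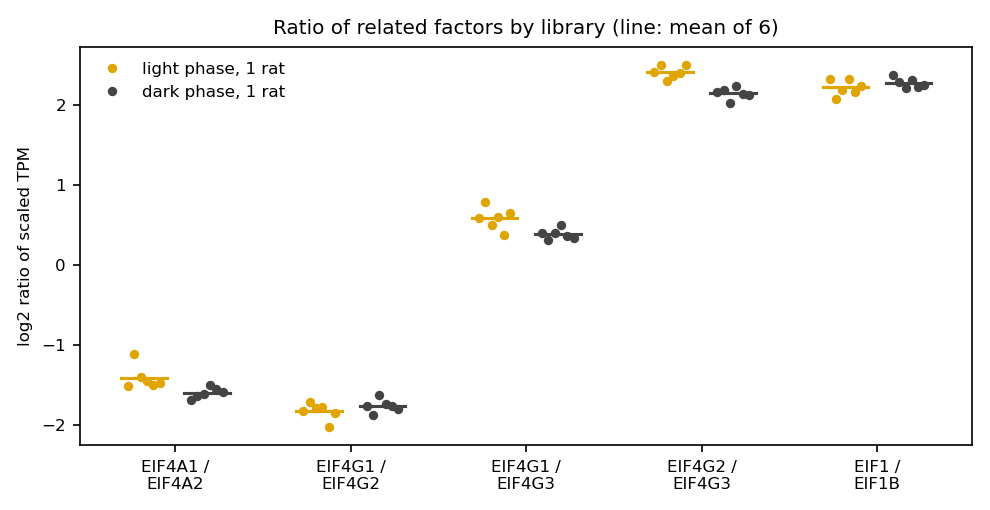
The log2 ratio of scaled TPM is plotted for 5 pairs of related factors, with a point for each of 12 libraries by phase and a line for the mean of 6. Dark-phase points lie below all light-phase points for EIF4G2 to EIF4G3, and for EIF4A1 to EIF4A2 1 light-phase library lies far above the others.

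The helicase cofactors EIF4B and EIF4H and the poly(A)-binding protein gene PABPC1 were not called here, though PABPC1 was in the study's own list from read counts. EIF4B measured 59.1 ± 2.37 scaled TPM in light-phase rats and 57.4 ± 1.14 in dark-phase rats (limma FDR 0.449). EIF4H measured 113 ± 5.26 and 107 ± 2.27, a log2 difference of -0.08 (limma FDR 0.158). PABPC1, whose protein binds the poly(A) tail and contacts eIF4G, measured 65.1 ± 7.3 and 57.7 ± 3.43, with a 95% interval of its log2 difference from -0.31 to -0.02 (limma FDR 0.109). The PABPC1 estimate of -0.17 was as large as that of EIF4A1, but its rats spread more, at a pooled SD of 0.124 against 0.0571 on the log2 scale.

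Of the eIF2 genes, which encode the carrier of the initiator tRNA, EIF2S2 and EIF2S3Y were measured. EIF2S2, the beta subunit, lay between 79.6 and 88.9 scaled TPM in light-phase rats, with a median of 81.5, and between 71.9 and 76.2 in dark-phase rats, with a median of 73.2. No dark-phase rat reached a light-phase rat. The mean fell from 82.8 ± 3.5 to 73.9 ± 1.75, a log2 difference of -0.16 (SE 0.03, limma FDR 0.00602), or by 10.7%.

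EIF2S3Y, a gamma subunit gene on the Y chromosome, was paired with its identifier only through a list of genes already called between these phases, so its values are a description without a test. It lay between 36.6 and 46.2 scaled TPM in light-phase rats and between 32.7 and 36.3 in dark-phase rats, with means of 40.9 ± 3.31 and 34.1 ± 1.37. It was also the factor just inside the limit of 30 TPM, at 37.5. Just outside it were 3 genes paired, like EIF2S3Y, only through genes called between the phases, so their values by phase are also descriptions. They were EIF4EBP3 at 25.1 TPM, with 24.2 ± 2.82 and 26 ± 1.64 scaled TPM by phase, EIF4EBP2 at 19.3 TPM, with 18.6 ± 1.43 and 20 ± 1.35, and EIF5A2 at 11 TPM, with 9.82 ± 0.705 and 12.2 ± 0.698. EIF4EBP2 and EIF4EBP3 encode proteins that hold eIF4E away from eIF4G, and EIF5A2 is the relative of EIF5A.

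EIF5, the factor that makes eIF2 hydrolyse its GTP at the start codon, was called lower in the dark phase. It lay between 70.2 and 85.1 scaled TPM in light-phase rats, with a median of 79.6, and between 65.4 and 71.6 in dark-phase rats, with a median of 67.9. The groups overlapped at their edges. The mean fell from 78.3 ± 6.11 to 68.3 ± 2.39, a log2 difference of -0.19 (SE 0.05, limma FDR 0.0185).

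EIF1 and EIF1B, which encode the related gatekeepers of start codon choice, were not called. EIF1 measured 303 ± 14.1 and 308 ± 15.8 scaled TPM (limma FDR 0.758), and EIF1B measured 65.3 ± 5.96 and 63.7 ± 4.82 (limma FDR 0.753). The ratio of EIF1 to EIF1B had medians of 4.61 and 4.82, and its log2 difference of 0.06 was within the spread of the rats (exact p = 0.229, adjusted over 5 pairs 0.275). EIF1B in light-phase replicate 2 was 76.7, above the other light-phase rats at 59.6 to 65.9.

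The eIF3 complex, the scaffold on the small ribosomal subunit, was represented by 7 subunit genes, and 1 of them was called. EIF3EL1 lay between 63.8 and 73 scaled TPM in light-phase rats, with a median of 71.9, and between 58.8 and 68.2 in dark-phase rats, with a median of 59.9. A single dark-phase rat, replicate 2 at 68.2, reached into the light-phase range. The mean fell from 70.4 ± 3.5 to 61.3 ± 3.55, a log2 difference of -0.2 (SE 0.05, limma FDR 0.0101). RefSeq lists this symbol both as a gene of its own and as a synonym of the subunit gene Eif3e, so reads of the 2 loci may have been divided by the counting and the value is uncertain in that respect.

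The estimates of all 7 eIF3 genes were below 0, beside 56.7% of genes with at least 30 TPM, and 6 of them did not pass the test. These genes too entered through the list ordered by light-phase level, and the part of this in the estimates was not tested. Of these estimates, EIF3C at -0.01 and EIF3K at -0.04 turned direction under some alternatives, single left-out libraries among them. EIF3M had a log2 difference of -0.1 with a 95% interval from -0.2 to -0.01 (limma FDR 0.13). EIF3F ranged from 94.4 to 111 and from 85.5 to 107 scaled TPM, EIF3G measured 71.7 ± 3 and 68 ± 3.2, and EIF3L 77.7 ± 4.35 and 73.7 ± 3.19. Their FDR values ranged from 0.219 to 0.315 (limma). EIF3F was the most abundant of the 7, at 101 TPM over both phases. The interval of EIF3M did not reach 0, but its adjusted p missed the threshold, while the study's own list from read counts held it.

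EIF3K and EIF3C varied most. EIF3K ranged from 62 to 86.4 scaled TPM in light-phase rats and from 57.5 to 84.3 in dark-phase rats, a log2 difference of -0.04 with an interval from -0.24 to 0.16. EIF3C measured 72.5 ± 7.55 and 71.8 ± 7.13, and its 12 values fell at 2 levels. The lower level held 4 libraries, 2 of each phase, at 61 to 64.7, and the upper held 8 libraries at 71.8 to 80.5 scaled TPM.

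**Figure D4:**
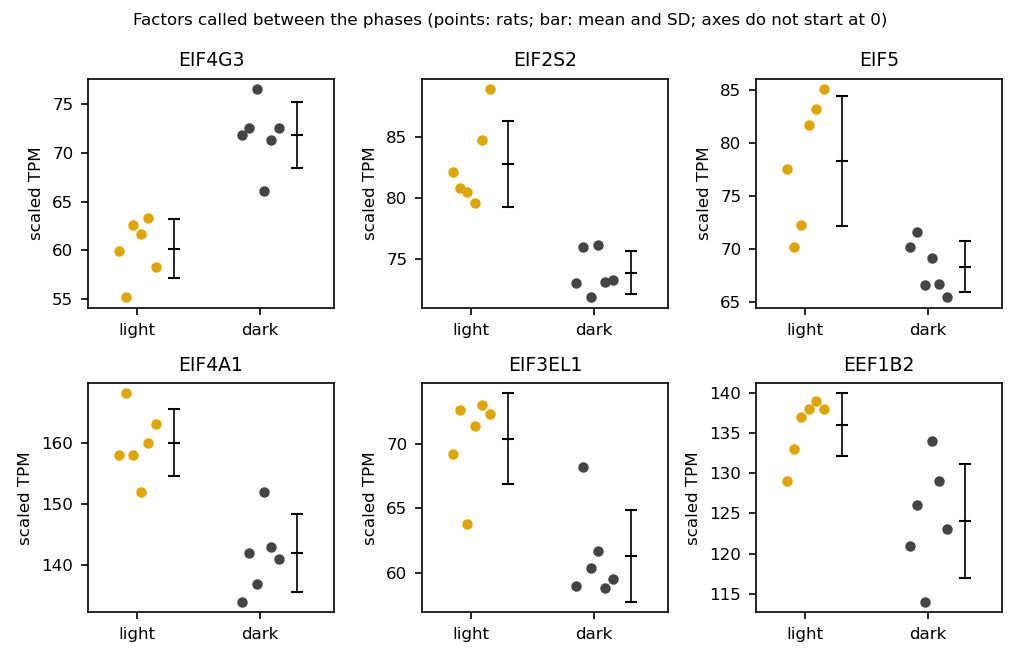
Scaled TPM is plotted by phase for each factor called between the phases, with a point for each of 6 rats and a bar for mean and SD, on axes that do not start at 0. EIF4G3 is higher in the dark phase and the other factors are lower, with EIF2S2 the one among those that shows no overlap.

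Among the elongation factors, EEF1B2 alone was called. It encodes the beta subunit of the exchange factor that recharges eEF1A with GTP. EEF1B2 lay between 129 and 139 scaled TPM in light-phase rats, with a median of 137, and between 114 and 134 in dark-phase rats, with a median of 124. The mean fell from 136 ± 3.89 to 124 ± 7.07, a log2 difference of -0.12 (SE 0.04, limma FDR 0.0484). This was the weakest of the calls. When each library was left out in turn it passed in 2 of 12 fits, with FDR from 0.0249 to 0.0982 (limma), and it was lost when any library other than light-phase replicate 1 or dark-phase replicate 4 was left out.

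EEF1G, the gamma subunit of the same exchange factor, measured 269 ± 15.5 and 254 ± 9.43 scaled TPM (limma FDR 0.21). EEF2, the translocation factor, measured 367 ± 15.8 and 381 ± 18.7, a log2 difference of 0.05 with an interval from -0.04 to 0.14 (limma FDR 0.445). EIF5A, which relieves stalled ribosomes and carries the modified residue hypusine, measured 291 ± 10.5 and 274 ± 9.14, a log2 difference of -0.09 with an interval from -0.16 to -0.01 (limma FDR 0.107). No difference was called in these 3, and only that of EEF2 had an estimate above 0. The study's own list from read counts held EIF5A.

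EEF1A1, the carrier of aminoacyl-tRNA and the most abundant of the factors, measured 2433 ± 261 scaled TPM in light-phase rats and 2318 ± 306 in dark-phase rats. Its log2 difference was -0.07 with a 95% interval from -0.28 to 0.13 (limma FDR 0.646). The wide interval came with a spread that another locus mirrored. LOC100360413, which RefSeq names Eef1a1l1 and which was chosen after its values were seen, ranged from 287 to 728 in light-phase rats and from 326 to 719 in dark-phase rats.

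Libraries in which this locus was high were those in which EEF1A1 was low. In light-phase replicate 2 EEF1A1 was 2088 and the locus 728, while in light-phase replicate 5 they were 2669 and 320. In dark-phase replicate 3 EEF1A1 was 1878 and the locus 628, while in dark-phase replicate 2 they were 2613 and 326. Over 12 libraries of both phases, Pearson's r of the log2 values was -0.91, given as a description because near-identical loci can share reads.

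The sum of both loci varied less than EEF1A1 alone. It was 2882 ± 105 in light-phase rats and 2794 ± 156 in dark-phase rats, coefficients of variation of 3.63% and 5.59%, against 10.7% and 13.2% for EEF1A1. With the sum in place of EEF1A1, the comparison between the phases was still not called. RefSeq lists 20 more loci named as pseudogenes of Eef1a1, so the EEF1A1 level here is uncertain.

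**Figure D5:**
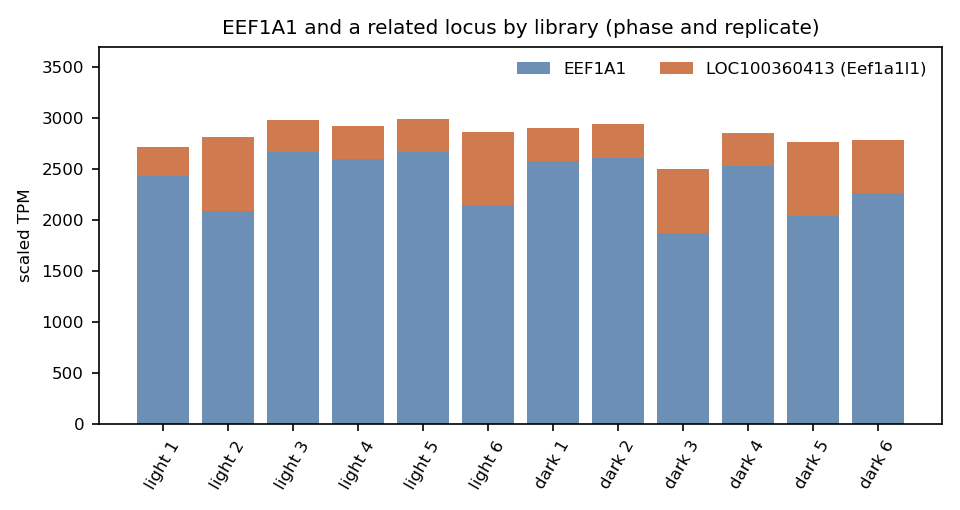
Scaled TPM of EEF1A1, of LOC100360413 and of their sum is plotted for each of 12 libraries. The 4 libraries with the locus at 628 or more hold the 4 lowest EEF1A1 values, 1878 to 2145, while the sum stays between 2506 and 2989.

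The other genes of the pathway were taken from 6 lists of initiation, elongation, termination, mTORC1 control, stress response and aminoacyl-tRNA synthetase genes. The lists held 99 genes other than the 26 factors. Some of the 99 fit the symbol rule but were not paired, ETF1 and GSPT1 among them. EIF5A2, EIF4EBP2 and EIF4EBP3, described above as outside the limit of 30 TPM, were also in the lists. Identifiers were paired for 18 of the 99, with EIF5A2, EIF4EBP2 and EIF4EBP3 included. Of these 18, 6 were paired by level alone and 12 only through lists of genes called between the phases. Of the 6, 1 was called higher and 1 lower, beside backgrounds of 9.52% and 8.1% of all genes. DDX3X, a helicase that assists the scanning of structured leaders, had medians of 142 and 159 scaled TPM and no overlap, a log2 difference of 0.16 (limma FDR 0.00394). DARS, the aspartyl-tRNA synthetase, fell from 53.4 ± 4.6 to 43.3 ± 2.71, a log2 difference of -0.3 (limma FDR 0.00483).

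The remaining 4 were not called. PAIP2, which removes the poly(A)-binding protein from messenger RNA, had a log2 difference of -0.07 (limma FDR 0.342), and BZW1, a mimic of eIF5, of -0.1 (limma FDR 0.12). RHEB, the activator of mTORC1, had a log2 difference of 0.13 (limma FDR 0.0832). ATF4, the transcription factor whose own translation rises when eIF2 is phosphorylated, had one of -0.13 (limma FDR 0.106). No gene of the termination list was paired.

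Cell type markers were read beside these results. All 10 markers of choroid plexus epithelium were paired and abundant, from 103 TPM for OTX2 to 298586 TPM for TTR, and their summed level ranged from 251483 to 335184 scaled TPM in light-phase rats and from 293211 to 321847 in dark-phase rats. Of these, KL, OTX2 and PRLR were called higher in the dark phase and AQP1 and SLC4A5 lower, named after their values were seen. Over all genes 9.52% were called higher and 8.1% lower. Of 3 genes listed as ependymal markers, the 2 paired, CFAP126 and DYNLRB2, were called lower. Their sum ranged from 351 to 437 in light-phase rats and from 243 to 321 in dark-phase rats without overlap. They averaged 176 and 151 TPM, above OTX2. Whether they come from ependyma or from the epithelium in this tissue was not tested, so they give no measure of ependymal cells. Of all single genes, 3.7% had light above dark without overlap.

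The other lists overlapped between the phases in their summed level. Fibroblast markers, 2 of 6 paired, summed to 129 to 218 and 144 to 225 scaled TPM. Pericyte and smooth muscle markers, 2 of 5 paired, summed to 172 to 400 and 163 to 247, and TAGLN among them was called lower. The single endothelial marker paired of 6 ranged from 57.4 to 118 and from 55.7 to 95.6.

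The blood marker varied widely between rats. HBB, the single blood marker paired of 4, ranged from 1412 to 5267 scaled TPM in light-phase rats and from 826 to 2159 in dark-phase rats. Macrophage markers, 2 of 7 paired, summed to 211 to 376 and 193 to 385. No paired marker of the lists given here was at 0, and the part of these other cells in the differences of the translation factors was not tested.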

How the data were processed

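The authors aligned paired-end reads of 12 choroid plexus libraries with STAR 2.7.9a to Rnor_6.0 and quantified genes with RSEM 1.3.3, per the submitters' processing notes and the study's methods. The deposited files give TPM and FPKM for each gene as the authors computed them. Neither is a count, and TPM keeps no depth. Groups follow the zeitgeber time in the labels, and rats are the replicates.

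TPM was divided by a factor for each library (mean log ratio after trimming 30% of ratios and 5% of levels) and compared as log2(value + 0.5) in limma 3.58.1 (R 4.3.3) with a mean-variance trend, so fold changes are on that scale. Genes averaging 1 TPM or more (12513) were tested, with Benjamini-Hochberg adjustment and phase as the only term. FPKM served only for the FPKM to TPM ratio and the relative depth. Exact permutation tests went through every assignment, in Python 3.11.15 with numpy 2.4.6. The fit was tested on simulated data, with changes put into genes drawn from all those tested. It called 14 of 100 genes changed by a log2 of 0.2 and 66 of 100 changed by 0.5. The changed genes were a smaller share of the 12513 than the 17.6% called in the data, and they spanned all levels. The simulation therefore does not give the share of such changes that the fit would call among the factors. A factor that was not called may still differ by a small amount.

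Symbols came from the study's supplementary gene lists, since the files hold identifiers only. The list ordered by light-phase level, of which the upper part was held, paired 25 factors, and lists of genes called between the phases paired 1 more, which was not tested. No value of those lists was used, and presence in the list of called genes is given only as a description. Every factor is named in the text. From each pathway list the 3 genes with the smallest p were to be named, markers only by list, and DBP and BMAL1 as the label check. The factors and lists were chosen with earlier results of these data known. Sequences came from RefSeq GRCr8 tables and were matched by symbol. Alternatives varied the scaling, pseudocount, filter, variance model, library weights, replicate block, covariate and left-out library. The ratios of related factors were repeated only with TPM as deposited, other pseudocounts, the replicate block and left-out libraries.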

Additional observations from a re-analysis of the deposited data

Results flagged for a closer look

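In 3 of 52 groups of 6 rats, 1 value stood apart from the rest by Dixon's gap test, where chance gives about 2.6. EEF2 in light-phase replicate 1 was 337 scaled TPM, with the others at 367 to 382 and a gap of 0.677 of the range. EIF1B in light-phase replicate 2 was 76.7, with the others at 59.6 to 65.9 and a gap of 0.63. EIF3EL1 in dark-phase replicate 2 was 68.2, with the others at 58.8 to 61.7 and a gap of 0.695. The 3 values came from 3 different libraries.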

How the results depend on the processing

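EIF4G3, EIF2S2, EIF3EL1 and EIF4A1 kept their calls in 21 of 22 alternatives, EIF5 in 20 and EEF1B2 in 7. The exception for the first 4 was the fit with the FPKM to TPM ratio as covariate, in which 0 factors were called higher and 0 lower, and 224 genes in all were called higher and 121 lower. There EIF4G3 was 0.27 (limma FDR 0.0644), EIF2S2 -0.12 (0.25), EIF3EL1 -0.14 (0.317), EIF4A1 -0.16 (0.179), EIF5 -0.06 (0.67) and EEF1B2 -0.02 (0.853), and the estimates of EEF1A1 (0.11), EIF1 (-0.01), EIF3K (0.00), EIF4B (0.00), EIF4E (-0.09) and EIF4G2 (0.02) turned direction. EEF1B2 was also lost with TPM as deposited (limma FDR 0.0714), without a filter (0.0559) and with robust variances (0.052). TPM as deposited turned EIF3C (0.00) and EIF4G2 (0.01), and library weights turned EIF3C (0.00) and EIF4A2 (-0.02). The cause was not tested.

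With each library left out in turn, 1 factor was called higher throughout and 4 to 5 lower, with 921 to 1186 genes in all called higher and 763 to 1062 lower. Estimates that turned ranged from -0.06 to 0.01 for EIF1B, -0.05 to 0.03 for EIF3C, -0.09 to 0.02 for EIF3K, -0.04 to 0.03 for EIF4A2, -0.03 to 0.04 for EIF4E and -0.02 to 0.00 for EIF4G2. The labels number the rats 1 to 6 in each phase. Same-numbered libraries had deviation correlations from -0.11 to 0.05, and 0 of 12 correlated best with their own number, so no pairing was seen. The labels do not say what the number stands for, and whether same-numbered rats were handled together is not known. With the replicate number as a block, 3 factors were called lower, and EEF1B2 (-0.12, limma FDR 0.078) and EIF5 (-0.19, limma FDR 0.0611) were not. With the block, 6 pairs allow no exact p below 0.0312, and the ratios of EIF4A1 to EIF4A2 (-0.18), EIF4G1 to EIF4G3 (-0.2) and EIF4G2 to EIF4G3 (-0.26) had an adjusted p of 0.0521. The files give no counts, so counting error is not known.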

Other observations

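Further genes of the translation pathway were paired with identifiers only through lists of genes called between these phases, so their values are descriptions without a test. Among the regulators of mTORC1, the kinase that drives cap-dependent translation, MTOR had a log2 difference of 0.17, its partner RPTOR 0.1, its inhibitor DEPTOR -0.35 and the upstream inhibitor TSC2 0.22. LARP1, which binds messenger RNAs with an oligopyrimidine tract, measured a median of 28.9 scaled TPM in light-phase rats and 33.4 in dark-phase rats, a log2 difference of 0.19. DHPS, the first enzyme of hypusine synthesis on eIF5A, had a log2 difference of -0.26 and EIF5A2 one of 0.3. DDIT3, a transcription factor of the stress response, had one of 0.2, and the tRNA synthetases KARS and QARS1 had -0.09 and -0.16.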
